A study of Mus musculus with 2 samples.

Results

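Acinar cells of the pancreas are described here in the library from mice treated with Cae and extracellular vesicles (CP+EVs), together with how these cells differed among themselves. A barcode was taken as an acinar member when it held at least 1000 UMIs (unique molecular identifiers, 1 per captured RNA molecule), at most 25% mitochondrial UMIs and at least 30% UMIs from 14 genes of digestive secretion. These were Cpa1, Cpb1, Cela1, Cela2a, Cela3b, Ctrb1, Pnlip, Prss2, Cel, Try4, Try5, Zg16, 2210010C04Rik and Rnase1. Members also held at most 1 UMI of the B cell genes Cd79a and Ms4a1 together and less than 1% of Col1a1, Col1a2 and Col3a1 UMIs. These limits kept 1877 of the 6849 CP+EVs barcodes that passed the depth and mitochondrial limits, which is 27.4% (exact Clopper-Pearson 95% interval 26.4 to 28.5%), out of 8845 CP+EVs barcodes and 22352 in the series. The series holds mouse pancreas captured on the BD Rhapsody single-cell system, with 1 library labelled "Cae+EVs treated" (CP+EVs) and 1 labelled "Cae treated" (CP). Both libraries carry a condition label of Cae-induced acute pancreatitis, although the title names the disease as chronic and calls the vesicles exercise-induced. The sources used here do not give strain, age, dose, time or how many animals were pooled for a library. With 1 library per group no test was possible, cells are not replicates, and every interval covers counting error only.

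Acinar cells make, store and release the digestive enzymes of the pancreas. They package inactive precursors of proteases together with lipases, nucleases and amylase in zymogen granules, under the control of transcription factors such as Ptf1a, Rbpjl, Nr5a2 and Bhlha15. In pancreatitis they are known to switch on the Reg family of small secreted lectins and to take on genes of duct cells.

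The enzyme genes chose the members, so their share is a description. The 14 genes made up 44.7% of all member UMIs, and their share of a member's UMIs had a median of 44.6%, with 5% of members below 32.0% and 5% above 54.3%. The limit of 30% cut through a continuous range. Just inside it, 242 members held 30 to 35% enzyme UMIs, and just outside it 202 barcodes held 25 to 30%. The barcodes inside had a median of 2410.5 UMIs and 816.5 genes, and those outside 2904.5 UMIs and 1086.5 genes. Another 141 barcodes met the enzyme limit and were left out for their B cell UMIs, and 4 for collagen. Members had a median of 2997 UMIs (lowest 1016, highest 23502) and 726 genes. The barcode sequences of 31 members were also present in the CP library, among 118 that both libraries shared.

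**Figure D1:**
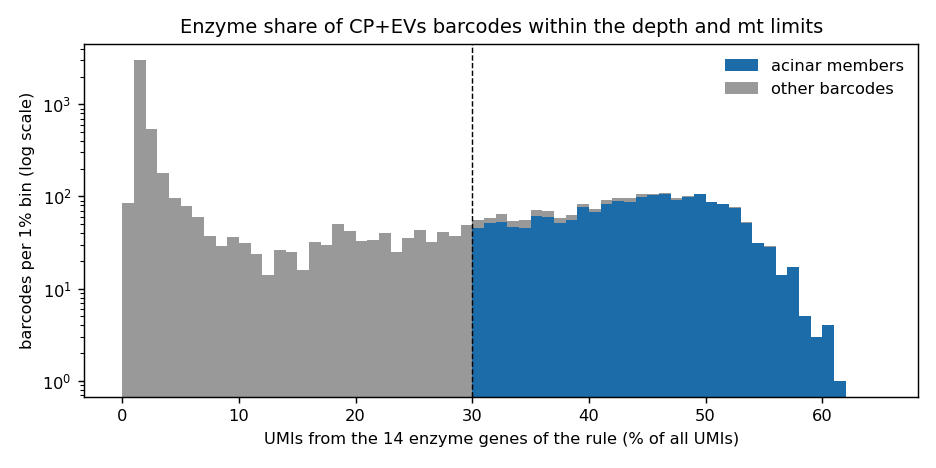
Histogram of the CP+EVs barcodes within the depth and mitochondrial limits by their share of UMIs from the 14 enzyme genes, on a log scale of barcodes per 1% bin; blue marks acinar members, grey other barcodes and the dashed line the limit of 30%. Members run from the limit up to 61.6%, and barcodes fill the range below the limit without a gap.

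The labelled cell type was checked against its markers. The rule fixed the abundance of 5 of the 6 acinar markers, Cpa1, Cela1, Ctrb1, Pnlip and Zg16, and only Tff2 and the acinar identity factors were independent of it. Summed over members and given as per-million UMI counts (CPM, not divided by gene length), Cela1, a chymotrypsin-like elastase, stood at 83994 CPM (exact Poisson 95% interval 83775 to 84213), and Tff2, a small secreted trefoil protein that the rule did not use, at 5716 CPM (5659 to 5773). Of the factors, Bhlha15 stood at 106 CPM, Nr5a2 at 34.2, Rbpjl at 28.1 and Ptf1a at 19.4 CPM. After thinning every cell to 1000 UMIs, a UMI of any of these 4 factors was found in 16.9% of members (317 of 1877, 15.2 to 18.7%), against 1.44% of the B and T lymphocytes of the same library (21 of 1458), taken as barcodes under the enzyme limit with at least 3 UMIs of Cd79a and Ms4a1 or at least 2 of the CD3 genes. Without thinning the shares were 41.0% and 9.12%, at median depths of 2997 and 4280.5 UMIs. Ductal marker cells were barcodes under the enzyme limit with at least 3 UMIs of Krt19, Krt7, Cftr and Sox9 together. After thinning, 17.8% of them had a UMI of the 4 factors (31 of 174, 12.4 to 24.3%). The 4 factors together therefore did not set members apart from ductal marker cells. Bhlha15 alone had a UMI in 10.6% of members (199 of 1877) and 1.15% of ductal marker cells (2 of 174). It was thus in most of the 317 members with a UMI of the 4 factors. Most of the 31 such ductal marker cells held Ptf1a, Rbpjl or Nr5a2 instead.

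RNA of other cells was present in members, and enzyme RNA in other cells. The immunoglobulin chain Igkc stood at 9144 CPM in members and 19593 CPM in lymphocytes, and the collagen-binding Dcn, a fibroblast gene, at 1124 CPM in members and 987 CPM in lymphocytes. Summed markers of fibroblasts took 0.309% of member UMIs, those of myeloid cells 0.130%, of B cells 0.0739%, of T and NK cells 0.0217%, of endothelium 0.00770%, of mesothelium 0.00567% and of endocrine cells 0.00348%. The rule itself limited Cd79a and Ms4a1, which are among the B cell markers, and Col1a1, Col1a2 and Col3a1, which are among the fibroblast markers. The B cell and fibroblast shares, here and below, were thus held down by selection, unlike the other shares. No B cell, T cell, myeloid or fibroblast marker of the lists was at 0. The nuclear RNA Malat1 was at 756 CPM in members and 4240 CPM in the other barcodes within the limits, and the median mitochondrial share was 0.675% in members and 4.43% in lymphocytes. Malat1, mitochondrial genes and the markers of fibroblasts, myeloid, B and T cells were all lower at a higher enzyme share. In the 398 members with at least 50% enzymes Malat1 was at 297 CPM, B cell markers at 0.0457% and fibroblast markers at 0.200% of UMIs, against 2060 CPM, 0.138% and 0.522% in the members with 30 to 35%. Their part in the results below was not tested, and no doublet caller was run.

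Among proteases, Ctrb1, a chymotrypsinogen, followed Cela1 at 59687 CPM, and 2210010C04Rik was at 51722 CPM. The carboxypeptidase genes Cpa1 and Cpb1 were at 34366 and 30562 CPM, the elastase-like Cela3b at 28987 CPM, and the trypsinogens Try5, Try4 and Prss2 at 25120, 20811 and 20265 CPM. Cela2a, another elastase, was far lower, at 507 CPM (490 to 524). These trypsinogens are close copies of one another, and the counting could have split their reads. Lipid digestion was led by Pnlip, pancreatic triglyceride lipase, at 55358 CPM. Its relative Pnliprp1 was at 42510 CPM and Clps, the cofactor colipase, at 34934 CPM. Cel was at 5880 CPM (5822 to 5938), Rnase1, pancreatic ribonuclease, at 18047 CPM, and Zg16, a lectin-like granule protein, at 12073 CPM. Of the amylase genes, Amy1 stood at 174 CPM and Amy2a5 at 117 CPM, while Amy2a1 had 1 UMI and Amy2a2, Amy2a3 and Amy2a4 had none. The amylase genes are near-identical copies, so that these low values are uncertain.

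Digestive enzymes that the rule did not use had a median share of 12.6% of a member's UMIs, with the middle 50% of members between 11.3 and 13.7%. They took 12.6% of the summed member UMIs and 1.03% of the lymphocyte UMIs. The lowest member held 5.67% and the highest 19.6%, so that no member lacked them. Zymogen granule and other secretory genes outside the enzymes were next. Sycn (syncollin, a granule protein) was at 7625 CPM, Gp2 (the main glycoprotein of the granule membrane) at 6824 CPM, Spink1 (the secreted trypsin inhibitor) at 5633 CPM, and Dmbt1 (a secreted scavenger receptor protein) at 3521 CPM. Cckar, the receptor for cholecystokinin, was at 382 CPM (368 to 397).

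**Figure D2:**
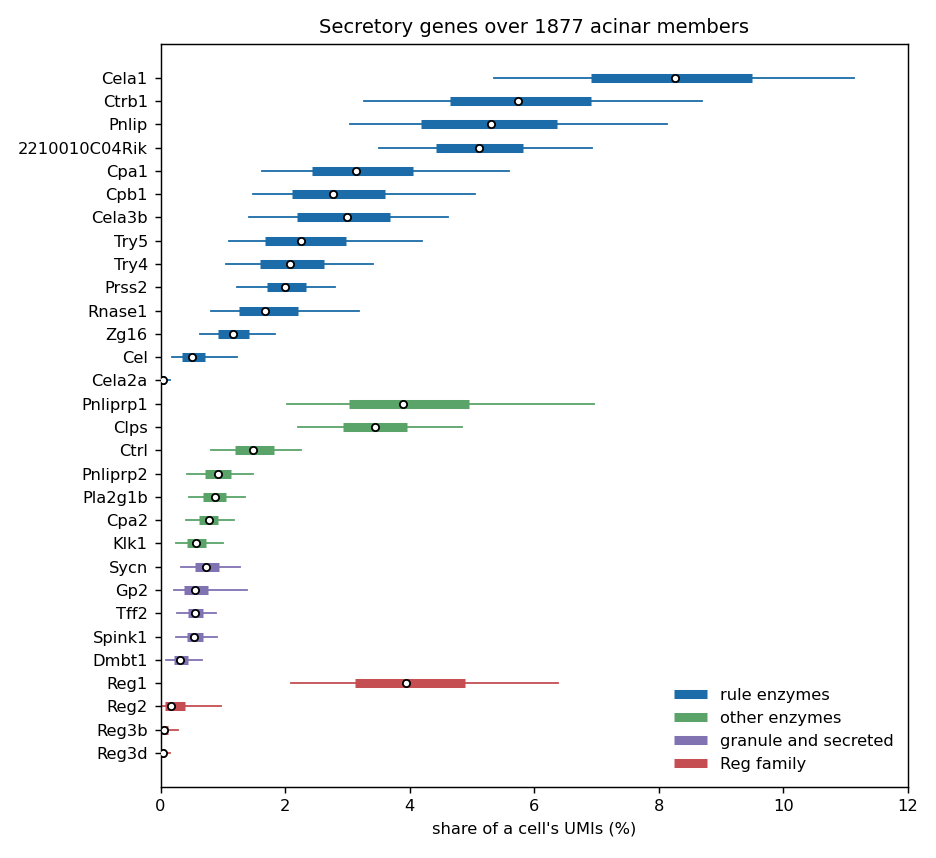
Share of each member's UMIs (%) taken by 30 secretory genes over 1877 members, with the median as a white point, the middle 50% of cells as a thick bar and the 5th to 95th percentile as a thin line. Cela1 has the highest median, 8.26%, and Reg1, at 3.94%, lies among the most abundant enzymes while Reg2, Reg3b and Reg3d lie near 0.

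The Reg genes code for secreted C-type lectins, and the 6 found in members stand together on chromosome 6. They took a median of 4.45% of a member's UMIs (5th to 95th percentile 2.47 to 6.88%), and Reg1 made up most of it. Reg1 was at 39895 CPM (39744 to 40046), Reg2 at 2987 CPM, Reg3b at 926 CPM, Reg3d at 526 CPM, Reg3a at 254 CPM and Reg3g at 111 CPM. Reg4 had no UMI, which allows up to 3 UMIs in the summed members. Reg1 was found in every member after thinning to 1000 UMIs, with a median of 39 and a range of 5th to 95th percentile of 20 to 65 UMIs. Reg2 differed far more between cells. It had no UMI in 477 members (25.4%), a median of 2, at least 10 UMIs in 108 members (5.75%) and 31 in the highest. The tenth of members with most of each gene held 38.8% of all Reg2 UMIs and 47.9% of all Reg3b UMIs, against 16.7% of Reg1 UMIs.

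Members with much Reg2 also held more of the Reg3 genes. They were grouped by Reg2 itself, and their values are a description. Per 1000 UMIs, the 108 members with at least 10 Reg2 UMIs averaged 2.88 Reg3b, 1.13 Reg3a, 1.02 Reg3d and 0.407 Reg3g UMIs. The 477 members with no Reg2 UMI averaged 0.472 Reg3b, 0.101 Reg3a, 0.417 Reg3d and 0.0587 Reg3g UMIs. Reg1 averaged 32.7 UMIs in the Reg2-high members and 40.5 UMIs in those without Reg2, with 41.2 UMIs in the 1292 members with 1 to 9 Reg2 UMIs. Cpb1 averaged 38.3 UMIs in the Reg2-high members and 27.0 in those without Reg2, and Cela3b 21.6 and 31.2 UMIs. Igkc, read in the same thinned cells, averaged 7.68 UMIs in the Reg2-high members and 10.3 UMIs in those without Reg2.

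Variation between cells was set against counting alone, for which the variance of UMIs over members thinned to 1000 UMIs equals their mean. Over 5628 genes with at least 20 thinned UMIs the median ratio of variance to mean was 1.03, 95% of genes were below 1.19, and 47 genes exceeded 1.5. Enzymes and Reg genes were among the most variable. The ratio was 6.34 for Pnliprp1, 5.48 for Ctrb1, 5.17 for Pnlip, 4.87 for Cpa1, 4.86 for Cpb1, 4.75 for Reg1, 4.50 for Reg2 and 2.69 for Reg3b. Abundant genes such as these can show extra variance that stays hidden in sparse genes. Prss2, at a level like that of Try4, had a ratio of 1.72 and Try4 one of 2.99. Outside the enzyme and Reg genes the 12 highest ratios belonged to S100a9 (10.3), Malat1 (3.77), S100a8 (3.34), Gp2 (3.04), Kcnq1ot1 (2.79), Retnlg (2.45), Ccl5 (1.91), Krt80 (1.86), Neat1 (1.85), Malt1 (1.73), Nupr1 (1.72) and Cd74 (1.67). Of these, Gp2 and Nupr1, a small stress-induced nuclear protein, are acinar genes, S100a8, S100a9 and Retnlg are known from neutrophils, and Malat1, Neat1 and Kcnq1ot1 are nuclear RNAs. S100a9 was found in 2.82% of the thinned members, with up to 29 UMIs in 1 of them.

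The make-up of the enzyme RNA was compared with that of the enzyme RNA found in lymphocytes, which are not known to make most of it. Enzyme and Reg genes took 61.8% of member UMIs and 4.63% of lymphocyte UMIs. In the 1286 of 1458 lymphocytes under 5% enzymes it was 2.26%. Within these UMIs, Cela1 made up 13.6% in members and 12.7% in lymphocytes, Ctrb1 9.66% and 9.40%, Cpb1 4.94% and 5.19%, Cela3b 4.69% and 4.59%, and Reg2 0.483% and 0.516%. The genes that stood apart were Dpep1, a membrane dipeptidase, and the ribonuclease Rnase4, whose shares were 9.6-fold and 11.1-fold higher in lymphocytes. Both are also expressed outside acinar cells. In the lymphocytes under 5% enzymes the log2 ratio of members over lymphocytes was -4.13 for Dpep1, -4.38 for Rnase4 and 1.31 for Cela2a, which took 0.0819% in members and 0.0331% there, and the other genes lay between -0.48 and 0.50.

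**Figure D3:**
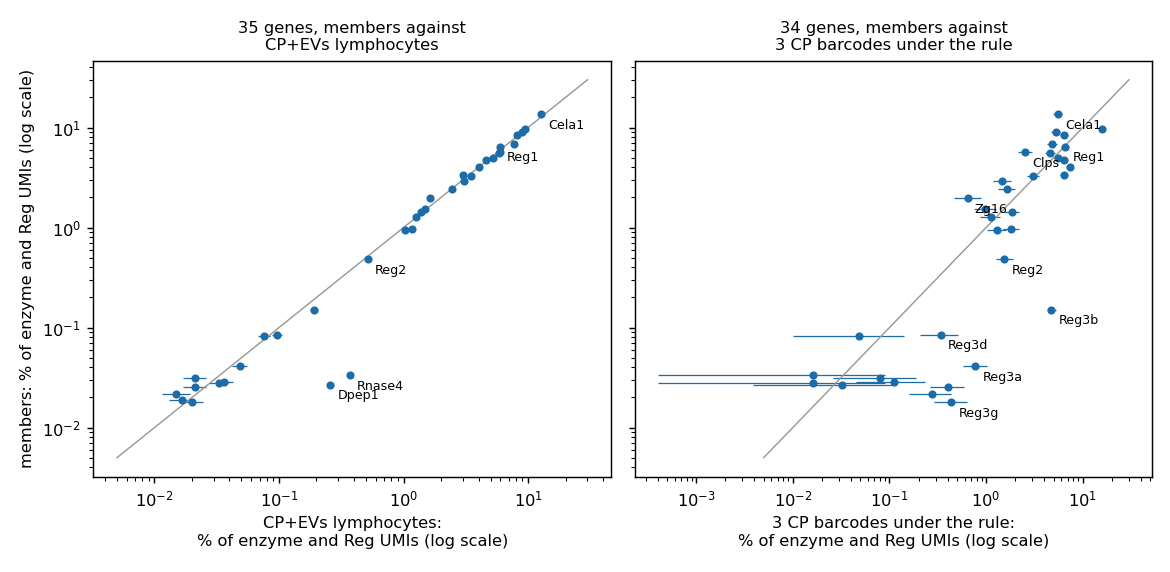
Share of enzyme and Reg UMIs (%) taken by each gene in members (vertical axis) against CP+EVs lymphocytes (left) and against the 3 CP barcodes under the rule (right), both on log scales, with exact Clopper-Pearson 95% intervals and a line of equality. Points lie along the line on the left except Dpep1 and Rnase4, and on the right Reg3b, Reg3a and Reg3g lie far to the CP side. Gm5771 (0.0256% in members and 0.402% in the CP barcodes) and Prss3 (0.0216% and 0.274%) also lie far to that side.

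Under the same rule the CP library held 3 barcodes with 10569 UMIs in all, of 8426 within its limits, so that a comparison of members between the libraries was not made beyond these values. Reg3b was at 926 CPM (903 to 949) in CP+EVs members and 27817 CPM (24728 to 31186) in the 3 CP barcodes, which rests on 294 UMIs. The 3 CP barcodes stood at 12040.0, 39683 and 49414 CPM of Reg3b, in order of falling enzyme share. Within enzyme and Reg UMIs, Reg3b made up 0.150% in CP+EVs members and 4.73% in the CP barcodes, and Cela1 13.6% and 5.52%. In lymphocytes Reg3b made up 0.192% of these UMIs in CP+EVs and 8.79% in CP, where Rnase4 made up 16.0% and Dpep1 4.81%. The source of this RNA was not tested. Enzyme and Reg UMIs were 4.63% of lymphocyte UMIs in CP+EVs, or 2.26% under 5% enzymes, and 0.141% in CP. Clu (clusterin, a secreted chaperone raised in injured epithelium) was at 1020 CPM in CP+EVs members and 11732 CPM (9758 to 13988) in the 3 CP barcodes, where 104 of 124 Clu UMIs came from the 1 barcode with 30.6% enzymes. The other 2 held 19 and 1 Clu UMIs, which is 3364 and 567 CPM. Library, treatment and animals cannot be told apart here.

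Pairs of enzyme and Reg genes were compared by how their shares moved between members. In the 1473 members with at least 2000 UMIs, thinned to 2000, the share of each of 25 enzyme and Reg genes in the enzyme and Reg UMIs was compared over 300 pairs of genes with Spearman's rho, as a description. These shares come from the same cells and add up to a fixed total, so that some negative values are built in. Whether enzymes rise and fall together as 1 block cannot be read from them. Cela3b, Cpb1, Cpa1 and Cel were also among the genes that chose the members. The strongest positive pairs were Cpb1 with Cpa1 (0.54), Cel with Cpb1 (0.49) and Cel with Cpa1 (0.49). Cel codes for the carboxyl ester lipase of pancreatic juice, and Cpa1 and Cpb1 for carboxypeptidases that remove different residues from the ends of peptides. The most negative pairs were Cela3b with Cpb1 (-0.69) and Cela3b with Cpa1 (-0.69), followed by Pnliprp1 with Rnase1 (-0.55), Cela3b with Cel (-0.53) and Pnliprp1 with Try4 (-0.49). Try5 and Pnliprp1 went together (0.45), as did Cela3b with Ctrl, another chymotrypsin-like protease (0.38), and with Reg1 (0.38). Reg2 and Reg3b went together at 0.35.

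**Figure D4:**
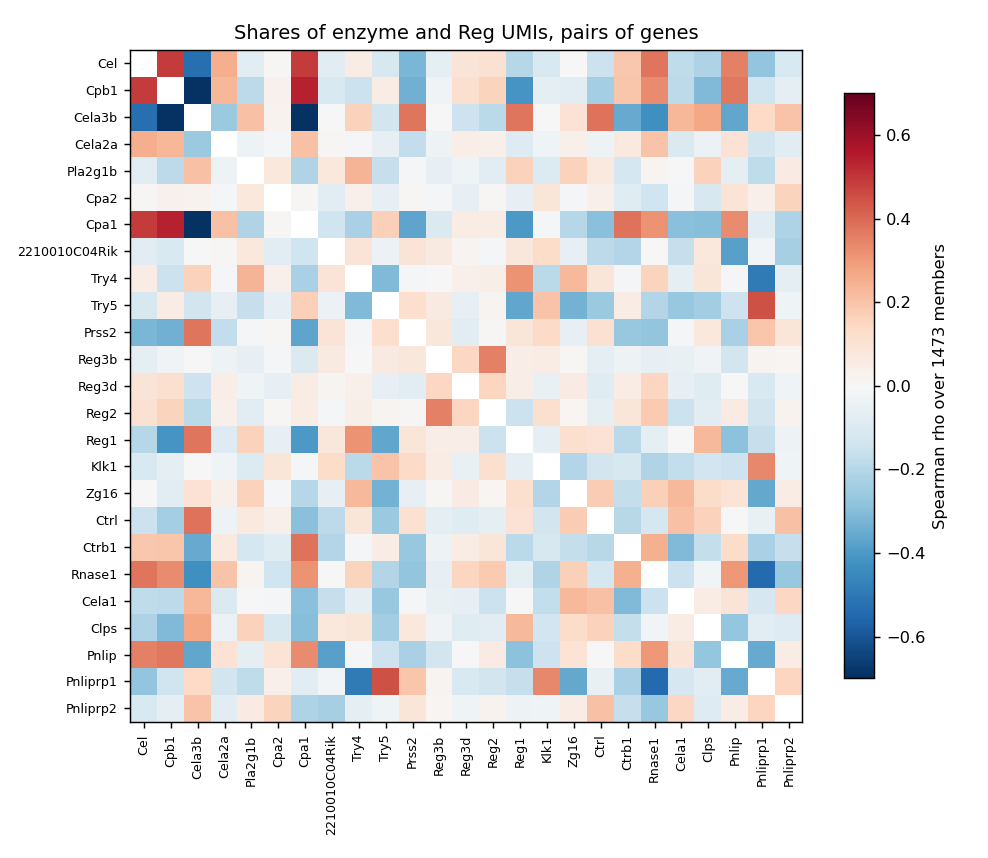
Spearman's rho between the shares of enzyme and Reg UMIs of 25 genes over 1473 members thinned to 2000 UMIs, red for positive and blue for negative values, diagonal left blank. Cel, Cpb1 and Cpa1 are positive with one another and negative with Cela3b (-0.53 to -0.69).

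The Cela3b relations were read again in subsets of these members. Cela3b with Cpb1 gave -0.66 in the 816 of these members with a share of Ptprc, Cd74, Cd79a and collagen UMIs under the median, -0.63 in the 818 with at least 45% enzymes and -0.58 in the 655 below 45%. Members under the median share of Ptprc, Cd74, Cd79a and collagen UMIs are called members with little RNA of other cells below. The name covers these genes only. Igkc, which is not among them, went with the same axis. Its share of all UMIs went with the Cela3b share at 0.62, and at 0.46 in the members with little RNA of other cells, while Malat1 gave 0.07. The part of Igkc in these relations was not tested.

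Promoters of genes at both ends of the axis and of Reg genes are shown because these genes moved together or apart between members. Acinar transcription is known to depend on the PTF1 complex, which contains Ptf1a and Rbpjl and binds an E-box next to a second box, and STAT factors are known to act on Reg genes. Each sequence runs from 250 bases before to 50 bases after the start in RefSeq's annotation of GRCm38.p6, 5′ to 3′ on the gene's strand. Capitals mark 3 motifs, each searched separately and on either strand, with none overlapping another. The first is the E-box CACCTG of the PTF1 site. The second is the further box of that site, searched as TTCCCA and its other strand. The last is the STAT site, spelled TTCNNNGAA.
Cpa1 (chr6:30638968-30639267, plus strand): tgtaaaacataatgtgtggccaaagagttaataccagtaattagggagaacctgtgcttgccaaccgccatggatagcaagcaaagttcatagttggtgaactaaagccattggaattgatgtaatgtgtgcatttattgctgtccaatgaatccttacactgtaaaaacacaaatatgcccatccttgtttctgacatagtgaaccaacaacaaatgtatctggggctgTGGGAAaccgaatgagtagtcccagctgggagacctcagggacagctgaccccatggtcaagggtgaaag
Cpb1 (chr3:20275684-20275983, minus strand): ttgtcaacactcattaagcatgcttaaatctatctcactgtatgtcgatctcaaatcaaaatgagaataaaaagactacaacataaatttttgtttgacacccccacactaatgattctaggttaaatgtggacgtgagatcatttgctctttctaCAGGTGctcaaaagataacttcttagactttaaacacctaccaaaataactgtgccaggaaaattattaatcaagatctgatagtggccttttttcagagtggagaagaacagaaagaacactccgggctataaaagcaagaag
Cela3b (chr4:137430471-137430770, minus strand): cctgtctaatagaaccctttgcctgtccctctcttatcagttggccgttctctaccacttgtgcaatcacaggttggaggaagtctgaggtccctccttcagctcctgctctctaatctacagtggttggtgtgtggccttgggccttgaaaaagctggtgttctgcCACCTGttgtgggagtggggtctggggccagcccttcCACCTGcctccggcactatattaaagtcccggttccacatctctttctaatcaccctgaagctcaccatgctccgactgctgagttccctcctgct
Reg1 (chr6:78425733-78426032, plus strand): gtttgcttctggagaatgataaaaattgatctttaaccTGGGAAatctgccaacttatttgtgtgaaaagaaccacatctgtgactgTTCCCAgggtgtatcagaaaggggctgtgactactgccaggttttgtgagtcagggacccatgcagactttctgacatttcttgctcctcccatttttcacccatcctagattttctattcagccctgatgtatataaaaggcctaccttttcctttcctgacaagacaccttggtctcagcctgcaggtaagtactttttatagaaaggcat
Reg2 (chr6:78404905-78405204, plus strand): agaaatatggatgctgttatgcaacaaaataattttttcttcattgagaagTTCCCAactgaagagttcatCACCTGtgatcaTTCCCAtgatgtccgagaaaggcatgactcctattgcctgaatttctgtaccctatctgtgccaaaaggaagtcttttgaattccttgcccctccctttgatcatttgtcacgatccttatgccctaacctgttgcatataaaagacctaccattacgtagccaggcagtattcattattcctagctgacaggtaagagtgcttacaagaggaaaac
Reg3b (chr6:78370635-78370934, plus strand): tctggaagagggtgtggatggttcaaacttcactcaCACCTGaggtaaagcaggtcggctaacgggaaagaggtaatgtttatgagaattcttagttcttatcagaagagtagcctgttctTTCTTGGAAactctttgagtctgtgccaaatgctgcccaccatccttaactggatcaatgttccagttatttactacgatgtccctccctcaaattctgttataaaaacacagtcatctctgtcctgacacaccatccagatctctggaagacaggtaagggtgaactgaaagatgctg
The E-box was found in Cpb1, Cela3b, Reg2 and Reg3b, the further box in Cpa1, Reg1 and Reg2, and the STAT site in Reg3b. Of all 32851 promoters of this length 20.2% hold the E-box, 25.6% the further box and 8.30% the STAT site. Of the 43 enzyme and Reg genes 37 had a promoter in the table, and 21, 20 and 4 of these held the 3 motifs. A match describes letters only, and Cpb1 and Cela3b, at opposite ends of the axis, both held the E-box.

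Members were then ranked by their Cela3b share of enzyme and Reg UMIs on a random 50% of each cell's UMIs, and values were read in the other 50%. The upper tercile (625 cells) had a median ranking share of 6.97% and the lower (626 cells) of 3.04%. A tercile is a range and not a cell type, and 370 and 283 cells lay within 10% of the upper and lower limit. Read in the other UMIs, Cela3b took 6.73% of enzyme and Reg UMIs in the upper tercile and 3.13% in the lower, which follows from the ranking. Cpb1 took 3.73% in the upper and 6.09% in the lower tercile, Cpa1 4.23% and 6.78%, and Cel 0.655% and 1.28%. The ratios of upper over lower were -0.71, -0.68 and -0.96 on the log2 scale. Some rare genes differed by more than these. Amy1 was 3.34-fold lower in the upper tercile (74 and 349 UMIs), Cela2a 2.37-fold lower and Reg2 2.03-fold lower. Amy2a5 went the other way, with a log2 ratio of 0.87 (137 and 105 UMIs). Reg1 was higher in the upper tercile by 0.43 and Ctrl by 0.40 on the log2 scale.

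**Figure D5:**
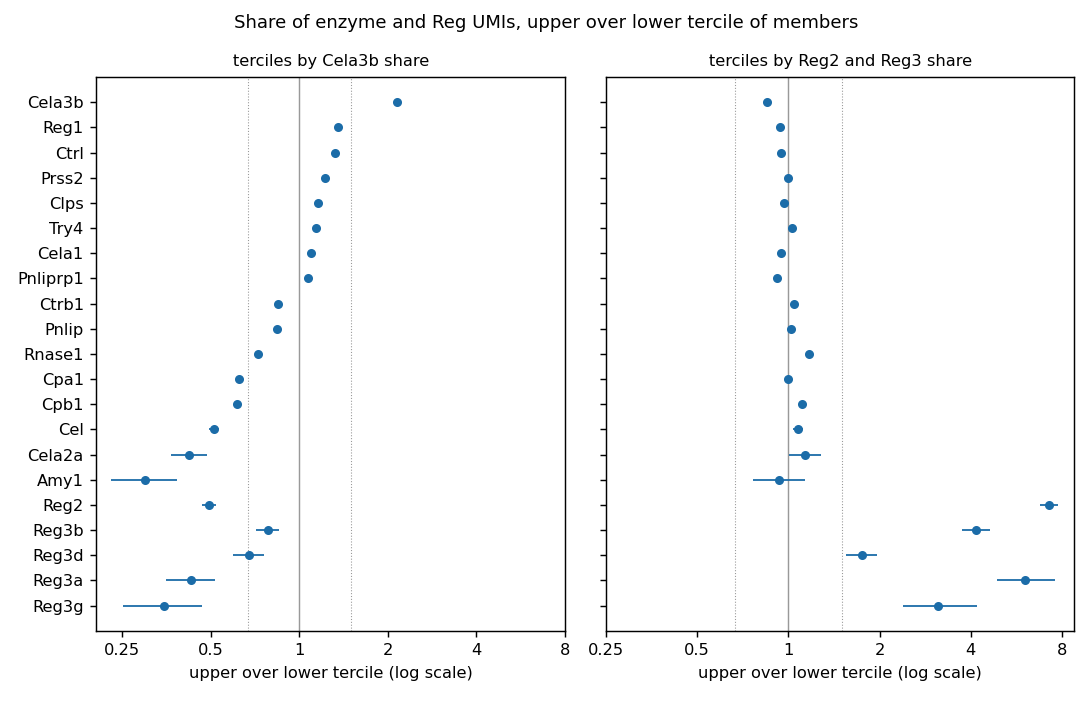
Share of enzyme and Reg UMIs of 21 genes in the upper over the lower tercile of members (log scale), ranked by Cela3b share (left) and by Reg2 and Reg3 share (right), with exact conditional 95% intervals and dotted lines at 1.5-fold in either direction. On the left the enzymes Cela2a, Amy1, Cel, Cpb1 and Cpa1 lie at least 1.5-fold lower in the upper tercile, as do Reg2, Reg3a and Reg3g. On the right the Reg2 and Reg3 genes stand apart, which follows from the ranking, while every enzyme shown stays within 1.5-fold.

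Outside the enzymes and Reg genes, values were scaled to the UMIs outside them. Of 6107 genes measured, 979 (16.0%) were higher by 1.5-fold or more in the Cela3b-high tercile and 689 (11.3%) were lower by as much, with a median log2 ratio of 0.05. Among the 1363 genes with at least 100 CPM in 1 tercile and 100 UMIs these counts were 156 and 128. Outside the gene classes left out for variability, the 8 lowest genes with at least 100 CPM and 100 UMIs were Hsd17b13, Prdx4, Rps6, Ero1lb, Tmed6, Sec61g, Ghitm and Gp2. Hsd17b13, a protein of lipid droplets, had 38 UMIs in the upper and 173 in the lower tercile and was 4.36-fold lower (exact conditional 95% interval 3.08 to 6.43). Prdx4, the peroxiredoxin of the endoplasmic reticulum, was 3.31-fold lower (2.43 to 4.65), and Ero1lb, the oxidase that feeds disulfide formation there, 2.82-fold lower (2.23 to 3.62). Gp2 was at 10970.0 CPM in the upper and 26014 CPM in the lower tercile, 2.37-fold lower (2.29 to 2.45). Nupr1, named for its variability, was at 1624 and 3757 CPM on this scale, a log2 ratio of -1.21. Hsd17b13, Prdx4, Ero1lb, Gp2 and Nupr1 lay at least 1.5-fold lower under every alternative scaling, split, depth and subset of members run, with log2 ratios of -0.86 for Prdx4 to -1.63 for Hsd17b13 in the members with little RNA of other cells.

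The lists for the same terciles were read beside that background. Of 18 granule and secretory genes measured 1 was higher by 1.5-fold or more and 7 were lower in the Cela3b-high tercile (median log2 ratio -0.47), among them Serpini2, a serpin secreted by acinar cells (-0.94), and Dmbt1 (-0.83). Of 27 genes of the response to stress in the endoplasmic reticulum none was higher and 7 were lower (median -0.39), among them the co-chaperone Dnajc3 (-0.84) and the disulfide isomerase P4hb (-0.80). The chaperone Hspa5 stood at -0.15 and Herpud1, a degradation factor, at 0.19. That list's median was -0.14 in the members with little RNA of other cells and -0.09 with all UMIs as the scale, against 0.08 and 0.39 for all genes, and the granule list's was -0.12 and -0.13. Of 24 immediate early genes 5 were higher and none lower (median 0.37), with Junb at 0.62, Jund at 0.52 and Egr1 at 0.42, and the median was 0.35 in the members with little RNA of other cells. Heat shock genes (2 of 15 higher, median 0.35), interferon and MHC genes (4 of 24 higher, 1 lower, 0.37), inflammation genes (2 of 10 higher, 0.50) and cell cycle genes (3 of 13 higher, 0.45) lay above the median of all genes. Acinar factors (1 higher, 3 lower of 13, 0.05), ductal and metaplasia genes (4 higher, 3 lower of 13, -0.07) and oxidative and p53 genes (2 higher, 3 lower of 23, -0.02) did not. Of all genes measured 16.0% were higher, and the counts of heat shock genes and of interferon and MHC genes lay near that share. Cell cycle genes held few UMIs, such as 48 and 35 of Mki67 in the upper and lower tercile. Of 17 enzymes outside the rule 2 were higher and 3 lower on this scale (-0.23). The rule's own enzyme share and RNA of other cells moved with these terciles. The 14 enzyme genes took 40.2% of UMIs in the upper and 47.8% in the lower tercile, and Cela3b took 3.59% of enzyme and Reg UMIs in members with at least 50% enzymes and 6.50% in those with 30 to 35%. Over the members, the enzyme share went with immediate early, heat shock and interferon and MHC genes at Spearman's rho of -0.55, -0.36 and -0.63 (n = 1877, shares of the same UMIs). Igkc took 1.25% of UMIs in the upper and 0.655% in the lower tercile, fibroblast markers 0.411% and 0.242%, myeloid markers 0.172% and 0.101%, B cell markers 0.0921% and 0.0593%, T and NK cell markers 0.0288% and 0.0173%, and mitochondrial genes 0.823% and 0.685%. Outside the gene classes left out for variability, the 8 highest genes were Arhgdib, Ier3, Adcy7, Pi16, Hamp2, S100a4, Fcrls and Ifi27l2a. They lay between 1.98-fold and 2.31-fold higher, and Arhgdib, Adcy7, Pi16 and S100a4 are known from blood cells or fibroblasts. The part of such RNA in the list values was not tested.

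Members were therefore also ranked by Cela3b share within 5 bins of enzyme share, which left 44.6% enzymes in the upper tercile and nearly the same in the lower. Igkc then took 1.06% and 0.754% of UMIs, and fibroblast markers 0.345% and 0.278%. The granule and secretory list lost its shift, with a median log2 ratio of 0.03, and Serpini2 (-0.39), Dmbt1 (-0.25), Dnajc3 (-0.55), P4hb (-0.35) and Junb (0.51) no longer reached 1.5-fold. Cpb1 and Cpa1 stood at -0.53 each, also short of 1.5-fold, and Cel stood at -0.72 and Amy1 at -1.77. Medians were -0.25 for stress of the endoplasmic reticulum, 0.28 for immediate early genes, 0.22 for heat shock genes and 0.17 for interferon and MHC genes, against 0.00 for all genes. Gp2 (-0.83), Nupr1 (-0.79), Prdx4 (-0.94), Ero1lb (-0.78) and Hsd17b13 (-1.36) stayed at least 1.5-fold lower.

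Members were ranked in the same way by the summed share of Reg2, Reg3a, Reg3b, Reg3d and Reg3g. Read in UMIs not used for the ranking, Reg2 took 0.978% of enzyme and Reg UMIs in the upper tercile and 0.135% in the lower. Reg3a was higher by 2.59, Reg3b by 2.06, Reg3g by 1.64 and Reg3d by 0.80 on the log2 scale, while Reg1 stood at -0.09. The rises of Reg2 and the Reg3 genes follow from the ranking, because these genes made up the ranked share. Of the enzymes, Rnase1 stood at 0.23, Cpb1 at 0.15 and Cela3b at -0.23. Of 6029 genes outside the enzymes and Reg genes, 578 (9.59%) were higher by 1.5-fold or more and 535 (8.87%) were lower by as much, and with at least 100 CPM and 100 UMIs 13 and 15 of 1339 were. Outside the gene classes left out for variability, Trp53inp1, a stress protein induced by p53, led the higher genes. It had 87 UMIs in the upper and 42 in the lower tercile, 2.21-fold higher (1.52 to 3.30). Its log2 ratio was 0.46 in members with at least 2000 UMIs. Dmbt1 stood at 0.57, Nupr1 at 0.45 and Clu at 0.44, all short of 1.5-fold. Medians of the lists other than cell type markers lay between -0.09 for immediate early genes and 0.19 for granule genes. Of 12 acinar factors 3 were higher by 1.5-fold or more and 1 was lower (median -0.02), beside 9.59% and 8.87% of all genes. No other such list had more than 2 members past 1.5-fold in 1 direction. Igkc took 0.837% of UMIs in the upper and 0.951% in the lower tercile, and fibroblast markers 0.278% and 0.340%.

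Terciles by the whole Reg share of all UMIs mostly ranked Reg1. Reg1 took 8.11% of enzyme and Reg UMIs in the upper tercile and 4.95% in the lower. Try4 was higher in the upper tercile by 0.33, whereas its close copy Try5 stood at -0.46 and Pnliprp1 at -0.40 on the log2 scale. Amy1 stood at -0.99 (142 and 279 UMIs). Of 6046 genes outside the enzymes and Reg genes 497 (8.22%) were higher by 1.5-fold or more and 630 (10.4%) lower, with a median of -0.03. Genes with at least 100 CPM and 100 UMIs were ranked outside the gene classes left out for variability. The highest were Gatm, which makes a precursor of creatine (0.74), Jtb (0.73), Lars2 (0.67), S100a16 (0.67), Surf4 (0.64), Hamp2 (0.60), Rsl1d1 (0.59) and Pcolce (0.59). The lowest were Mef2c (-1.26), Chd2 (-0.95), Malat1 (-0.93), Rock1 (-0.92), Il6ra (-0.92), Atrx, Tsn and Thoc2 (each -0.86). Malat1 and Mef2c, a factor known from B cells, stood at -0.23 and -0.35 in the members with little RNA of other cells. The metallothionein Mt1 was higher by 0.45 and Gp2 stood at -0.35. Of 27 genes of the response to stress in the endoplasmic reticulum none passed 1.5-fold in either direction (median 0.03), 2 of 24 immediate early genes were lower (-0.08), and ductal and metaplasia genes had 2 of 14 lower (-0.05). Granule genes (2 of 19 higher) and enzymes outside the rule (2 of 17 higher, 1 lower) both had a median of 0.26, and the other lists apart from cell type markers had medians between -0.11 and 0.08. Medians were -0.54 for T and NK cell markers, -0.21 for B cell markers, -0.03 for fibroblast markers and 0.19 for myeloid markers. Malat1 took 0.0499% of UMIs in the upper and 0.116% in the lower tercile, and mitochondrial genes 0.648% and 0.811%.

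Stress genes were measured in all members together as well. Immediate early genes took 0.596% of member UMIs, 1.08% of lymphocyte UMIs and 3.41% of UMIs in the 174 barcodes with at least 3 UMIs of ductal markers (ductal marker cells). Egr1, a transcription factor induced within minutes of a stimulus, was at 737 CPM in members, 1067 CPM in lymphocytes and 7860 CPM in ductal marker cells. Genes of the response to stress in the endoplasmic reticulum took 0.722%, 0.776% and 1.06%, with Hspa5, the main chaperone of that compartment, at 1494 CPM in members and 1400 CPM in lymphocytes. Heat shock genes took 0.216%, 0.673% and 1.10%, and interferon and MHC genes 0.812%, 2.62% and 2.14%. Mt1, a metal-binding protein of oxidative stress, was higher in members, at 4341 CPM, than in lymphocytes (764 CPM) or ductal marker cells (1619 CPM). Nupr1 was at 938 CPM in members and 73.6 CPM in lymphocytes. Within members, immediate early genes took 0.398% of UMIs where enzymes reached at least 50% and 0.972% where they were 30 to 35%, beside the difference in Malat1 and fibroblast markers given above.

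Ductal markers were sparse in members. The 6 ductal markers, among them Krt19, Krt7 and Sox9, took 0.00808% of UMIs in members, 0.0113% in lymphocytes and 0.340% in ductal marker cells, which were chosen by such markers. After thinning to 1000 UMIs, 125 members (6.66%, 5.57 to 7.88%) had a UMI of any of the 6, against 46 lymphocytes (3.16%, 2.32 to 4.19%) and 126 ductal marker cells (72.4%). Without thinning the shares were 21.5%, 12.6% and 100%, at median depths of 2997, 4280.5 and 8502 UMIs. Of the 125 members 7 had at least 2 such UMIs, as did 7 of the 46 lymphocytes. The share of cells and the share of UMIs stood in opposite order between members and lymphocytes, so that neither a higher nor a lower level in members is read from them. Krt19 was found in 14 members (0.746%) and 3 lymphocytes (0.206%) and Sox9, a factor of duct cells, in 38 (2.02%) and 11 (0.754%). The epithelial keratin Krt18 had a UMI in 16.1% of members and 3.16% of lymphocytes, and Clu in 60.6% and 9.05%. Ductal marker cells had a UMI of Krt18 in 44.8% and of Clu in 74.1%.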

How the data were processed

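Single-cell libraries were prepared on the BD Rhapsody system, per the labels' protocols, from the pancreas of mice, 1 library each for CP+EVs and CP. Each deposited matrix gives whole-number UMI counts for 31253 genes, and nothing in it shows that the authors normalized them. The submitters' processing notes list CASAVA 1.8, UMI-tools, Seurat and mm10, with no word on what each did. The sources used here name no aligner, annotation or cell caller. Of 43 repeated symbols, only the entry holding most UMIs counted.

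UMIs were summed over cells and given as CPM with exact Poisson 95% intervals, or as shares with exact Clopper-Pearson 95% intervals, in Python 3.11.15 with numpy 2.4.6, scipy 1.17.1 and pandas 2.3.3. Summed depth was 6716192 UMIs in members. Cells were thinned to 1000 or 2000 UMIs for shares of cells and for variance. Terciles were ranked on 50% of UMIs and read in the other 50%, with 0.5 UMIs added in log2 ratios. Genes needed 20 CPM in 1 tercile and 20 UMIs in all, and called means at least 1.5-fold. Doublets were not called or removed, beyond the limits on B cell and collagen UMIs. Positions came from the GENCODE annotation of mm10 and promoters from RefSeq (GRCm38.p6). The steps for terciles were tested on simulated cells of a single profile, in which a separate group had raised Reg genes. The members formed ranges without such groups, so that the simulation checked the computation and not the tercile results. Named genes were the rule genes, the label's markers, the Reg family, up to 4 abundant members of each list, the top 8 and bottom 8 genes by tercile ratio at 100 CPM and 100 UMIs, and the 12 with the highest ratio of variance to mean, and others in the text were chosen after their values were seen. Members and lists were chosen with earlier results of these data known, and the terciles by Cela3b and by Reg2 and Reg3 were added after seeing the data. No column of another series was present.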

Additional observations from a re-analysis of the deposited data

How the results depend on the processing

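No paired analysis was possible because each group has 1 library and the labels give no replicate numbers; leaving out a replicate was not possible for the same reason. The number of members was 398 at a limit of 50% enzymes and 2 when no UMI of Ptprc, Cd74, Cd79a and the collagen genes was allowed, so that planned setting gave no terciles, and members under the median share of these genes were used in its place, chosen after seeing the data. It lay between 1473 and 2147 under the other 5 rules, which changed the minimum of UMIs, the enzyme limit to 20%, the mitochondrial limit to 10% or dropped the B cell and collagen limits. The median Reg family share, 4.45%, was 4.33% without a minimum of UMIs beyond that of the files, 4.21% at 20% enzymes, 4.55% at 50%, 5.16% in the 2 members and 10.7% of the UMIs outside enzyme and mitochondrial genes. The median share of enzymes outside the rule, 12.6%, was 12.7% with at least 2000 UMIs, 12.4% without that minimum, 12.3% at 20% enzymes, 12.5% without the B cell and collagen limits and 11.3% in the 2 members.

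Scaling by all UMIs moved the median log2 ratio of all genes to -0.26 (Reg family terciles), -0.12 (Reg2 and Reg3) and 0.39 (Cela3b). In the Reg family terciles it left 70 genes higher, and the list medians were 0.048 for other enzymes, 0.049 for granule genes, -0.20 for endoplasmic reticulum stress, -0.16 for heat shock, -0.19 for oxidative and p53 genes and -0.24 for cell cycle. In the Reg2 and Reg3 terciles it gave 148 higher and 352 lower, and in the Cela3b terciles 158 lower. With at least 100 CPM and 100 UMIs the counts of higher and lower genes were 9 and 41, 13 and 15, and 156 and 128 for these 3 rankings. In members with little RNA of other cells, 387 genes were lower in the Reg family terciles and 352 in the Reg2 and Reg3 terciles. In their Cela3b terciles 590 were higher and 434 lower. Their Reg family medians were 0.010 for immediate early genes, 0.16 for interferon and MHC genes and 0.44 for cell cycle. Within bins of enzyme share the Reg family median for endoplasmic reticulum stress was -0.060. The cause of these shifts was not tested. Single genes were followed under the alternatives only for a chosen part of those named in the text, and not for all genes called. None of the followed genes past 1.5-fold changed direction. The alternatives were these scalings, means over cells, the exchanged 50% of UMIs, another random split and members with at least 2000 UMIs. Ranks within 5 bins of depth or of enzyme share (added after seeing the data) and members with little RNA of other cells were also run. Depth limits what sparse genes can show: transcription factors and ductal markers had under 1 UMI in most cells.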
